A study of Mus musculus with 8 samples.

Results

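The Hox genes encode homeodomain transcription factors that lie side by side in clusters, and all 39 protein-coding genes named Hoxa, Hoxb, Hoxc or Hoxd with a number were followed here, of 21883 nuclear protein-coding genes in the mouse RefSeq annotation of GRCm38.p6, the build called mm10. They were chosen by symbol alone and sit in 4 clusters: Hoxa with 11 genes on chromosome 6, Hoxb with 10 on chromosome 11, Hoxc with 9 on chromosome 15 and Hoxd with 9 on chromosome 2. A cluster was taken from its first to its last gene plus 10 kb on each side, which gave chr6:52145367-52270880, chr11:96184316-96378254, chr15:102911131-103046856 and chr2:74658225-74775142, together 572 kb.

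Within a cluster the genes are numbered by paralogue group, from 1 at the end that acts towards the head (anterior) to 13 at the end that acts towards the tail (posterior), and in embryos they switch on in about that order. Polycomb complexes keep unused Hox genes in a compact, repressed state, and trithorax proteins keep used ones active. Adult liver parenchyma is known for little Hox expression, whereas blood-forming cells and early myeloid cells use HoxA and HoxB genes.

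The study profiled open chromatin with ATAC-seq, in which a transposase cuts accessible DNA, in mouse liver cells lacking the Rb family genes (Rb family triple knockout) after Cre-mediated recombination of floxed alleles. The 8 libraries were made from YFP+ cells sorted from digested livers or macroscopic lesions. By title they fall into 5 groups: Thy1+ CK19 with 2, Thy1+ Sox9 with 1, Epcam- with 2, EpCAM-high CK19 with 2 and EpCAM-high Sox9 with 1. All groups share the knockout and the YFP sort, none is an intact control, and the labels give no Cre driver, strain or age and do not say whether livers were pooled. The data are 5 peak lists, each of 1 condition: Tumor Sox9 with 39644 peaks, Prog-like CK19 with 71375, Prog-like Sox9 with 67855, EpCAM-high CK19 with 56932 and EpCAM-high Sox9 with 59454. Both EpCAM-high lists are named like a sample group, while no label uses the names Prog-like or Tumor, so those 3 lists were tied to no sample group. CK19 (Krt19) and Sox9 are genes of bile duct cells, and EpCAM is a surface protein of the same cells. The sample titles do not say what CK19 and Sox9 stand for in the group names. Every difference reported is between single lists, with no replicate check and no test, and a gene without a peak had none detectable at the unknown read depth of that list. Because a deeper library gives more peaks, each result was also computed with every list shortened to its 39644 peaks of highest −log10 p, called equal length here.

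Hox genes were mostly without an open gene end in any of the 5 lists. A gene was called open when a peak lay within 1 kb of either of its annotated ends. By that rule 0 of 39 Hox genes were open in Tumor Sox9 (0%, exact 95% interval up to 9.03%), 10 in Prog-like CK19 (25.6%, 13.04% to 42.1%), 6 in the Prog-like Sox9 list (15.4%, 5.86% to 30.5%), 4 in EpCAM-high CK19 and 4 in the EpCAM-high Sox9 list (10.3% each, 2.87% to 24.2%). The intervals are by Clopper and Pearson and take in counting error alone. Over all 21883 genes the same rule called 51.1% in Tumor Sox9, 57.4% in Prog-like CK19, 54.4% in the Prog-like Sox9 list, 57.8% in EpCAM-high CK19 and 57.7% in the EpCAM-high Sox9 list. The Hox share therefore lay below the share of all genes in each list. CpG, a dinucleotide that is usually depleted in mouse DNA, is kept at many promoters, and such promoters are commonly open. Of 8895 genes with a CpG-rich promoter in the RefSeq table (observed to expected CpG of at least 0.6), 78.1% were open in Tumor Sox9, 83.5% in Prog-like CK19, 80.7% in the Prog-like Sox9 list, 84.7% in EpCAM-high CK19 and 84.8% in the EpCAM-high Sox9 list. Of the 12 Hox genes with a CpG-rich promoter, 0 were open in Tumor Sox9, 3 in Prog-like CK19, 2 in the Prog-like Sox9 list, 1 in EpCAM-high CK19 and 2 in the EpCAM-high Sox9 list. Of all 39, 25 were open in no list, 6 in 1 list, 6 in 2 lists, 2 in 3 lists and 0 in 4 or 5. Of all 21883 genes, 32.4% were open in no list, 5.12% in 1 list, 7.81% in 2, 5.0% in 3, 5.45% in 4 and 44.2% in all 5.

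**Figure D1:**
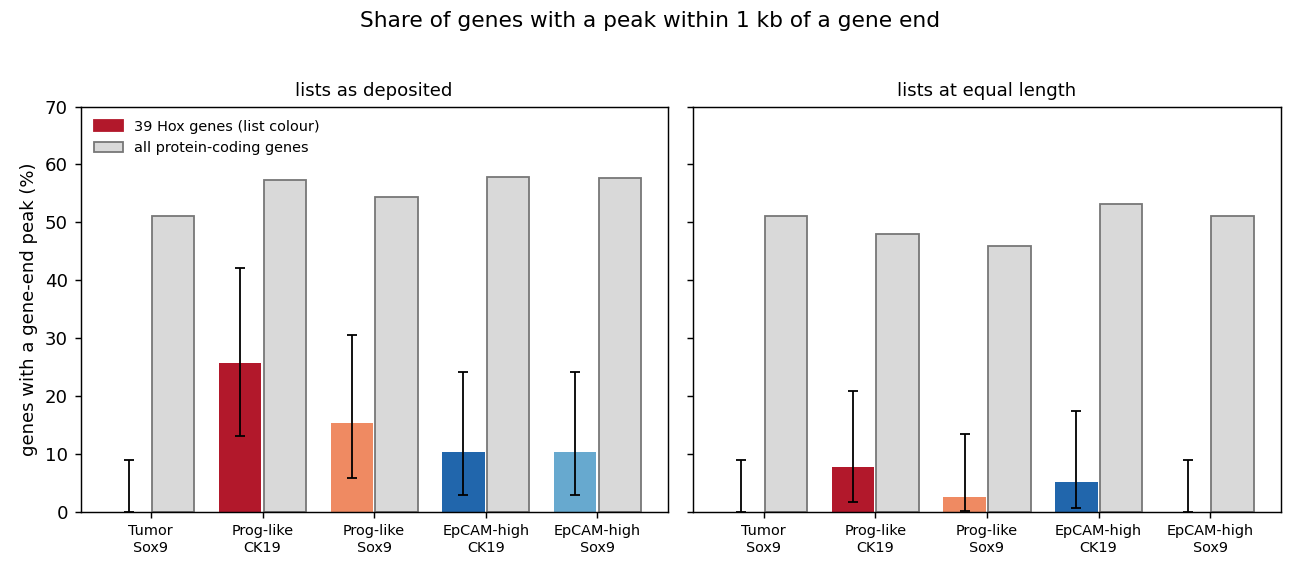
The plot gives the percentage of genes with a peak within 1 kb of a gene end, for the 39 Hox genes (coloured bars, with exact 95% intervals for counting error) and all 21883 protein-coding genes (grey bars), by list. The Hox bars lie between 0% and 25.6% as deposited and between 0% and 7.69% at equal length, below the grey bars of 45.9% to 57.8%.

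Counted over the clusters rather than at gene ends, the lists held 3 peaks in Tumor Sox9, 16 in Prog-like CK19, 11 in the Prog-like Sox9 list, 9 in EpCAM-high CK19 and 6 in the EpCAM-high Sox9 list. Per 100 kb there were 0.524 peaks in the clusters against 1.45 over the genome in Tumor Sox9, 2.80 against 2.62 in Prog-like CK19, 1.92 against 2.49 for Prog-like Sox9, 1.57 against 2.09 for EpCAM-high CK19 and 1.05 against 2.18 for EpCAM-high Sox9. Peaks covered 964 bp of the clusters in Tumor Sox9 (0.169%, genome 0.889%), 9226 bp in Prog-like CK19 (1.61%, genome 1.64%), 4615 bp for Prog-like Sox9 (0.807%, genome 1.23%), 4427 bp for EpCAM-high CK19 (0.774%, genome 1.13%) and 2130 bp for EpCAM-high Sox9 (0.372%, genome 0.968%). Merged across lists, the 45 peaks formed 25 regions, of which 13 lay at a Hox gene end and 12 elsewhere in a cluster. Which cluster held the peaks differed between the lists: the Prog-like lists had most of theirs in HoxA and HoxB, and the EpCAM-high lists had most of theirs in HoxD. HoxA held 2 peaks in Tumor Sox9, 10 in Prog-like CK19, 7 in the Prog-like Sox9 list, 2 in EpCAM-high CK19 and 1 in the EpCAM-high Sox9 list. HoxD held 1 in Tumor Sox9, 1 in Prog-like CK19, 2 in the Prog-like Sox9 list and 5 in each EpCAM-high list. Per 100 kb, HoxA reached 7.97 peaks in Prog-like CK19 and 5.58 in the Prog-like Sox9 list, and HoxD reached 4.28 in both EpCAM-high lists, all above the genome value of their own list. At equal length HoxA had 2.39 per 100 kb in Prog-like CK19 and 1.59 in the Prog-like Sox9 list, and HoxD had 1.71 in EpCAM-high CK19 and 0 in the EpCAM-high Sox9 list, beside 1.46 over the genome in Prog-like CK19, Prog-like Sox9 and EpCAM-high Sox9 and 1.45 in EpCAM-high CK19. Tumor Sox9 also had 1.59 per 100 kb in HoxA, at both lengths, beside 1.45 over the genome. Of the 25 regions, 15 held a peak of a Prog-like list and none of an EpCAM-high list, 6 the reverse, and 4 held both. Over the genome, of 138775 regions merged from the 5 lists in the same way, 38.0% held a Prog-like and no EpCAM-high peak, 35.6% the reverse and 18.0% both. The Prog-like lists are also the longer ones.

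**Figure D2:**
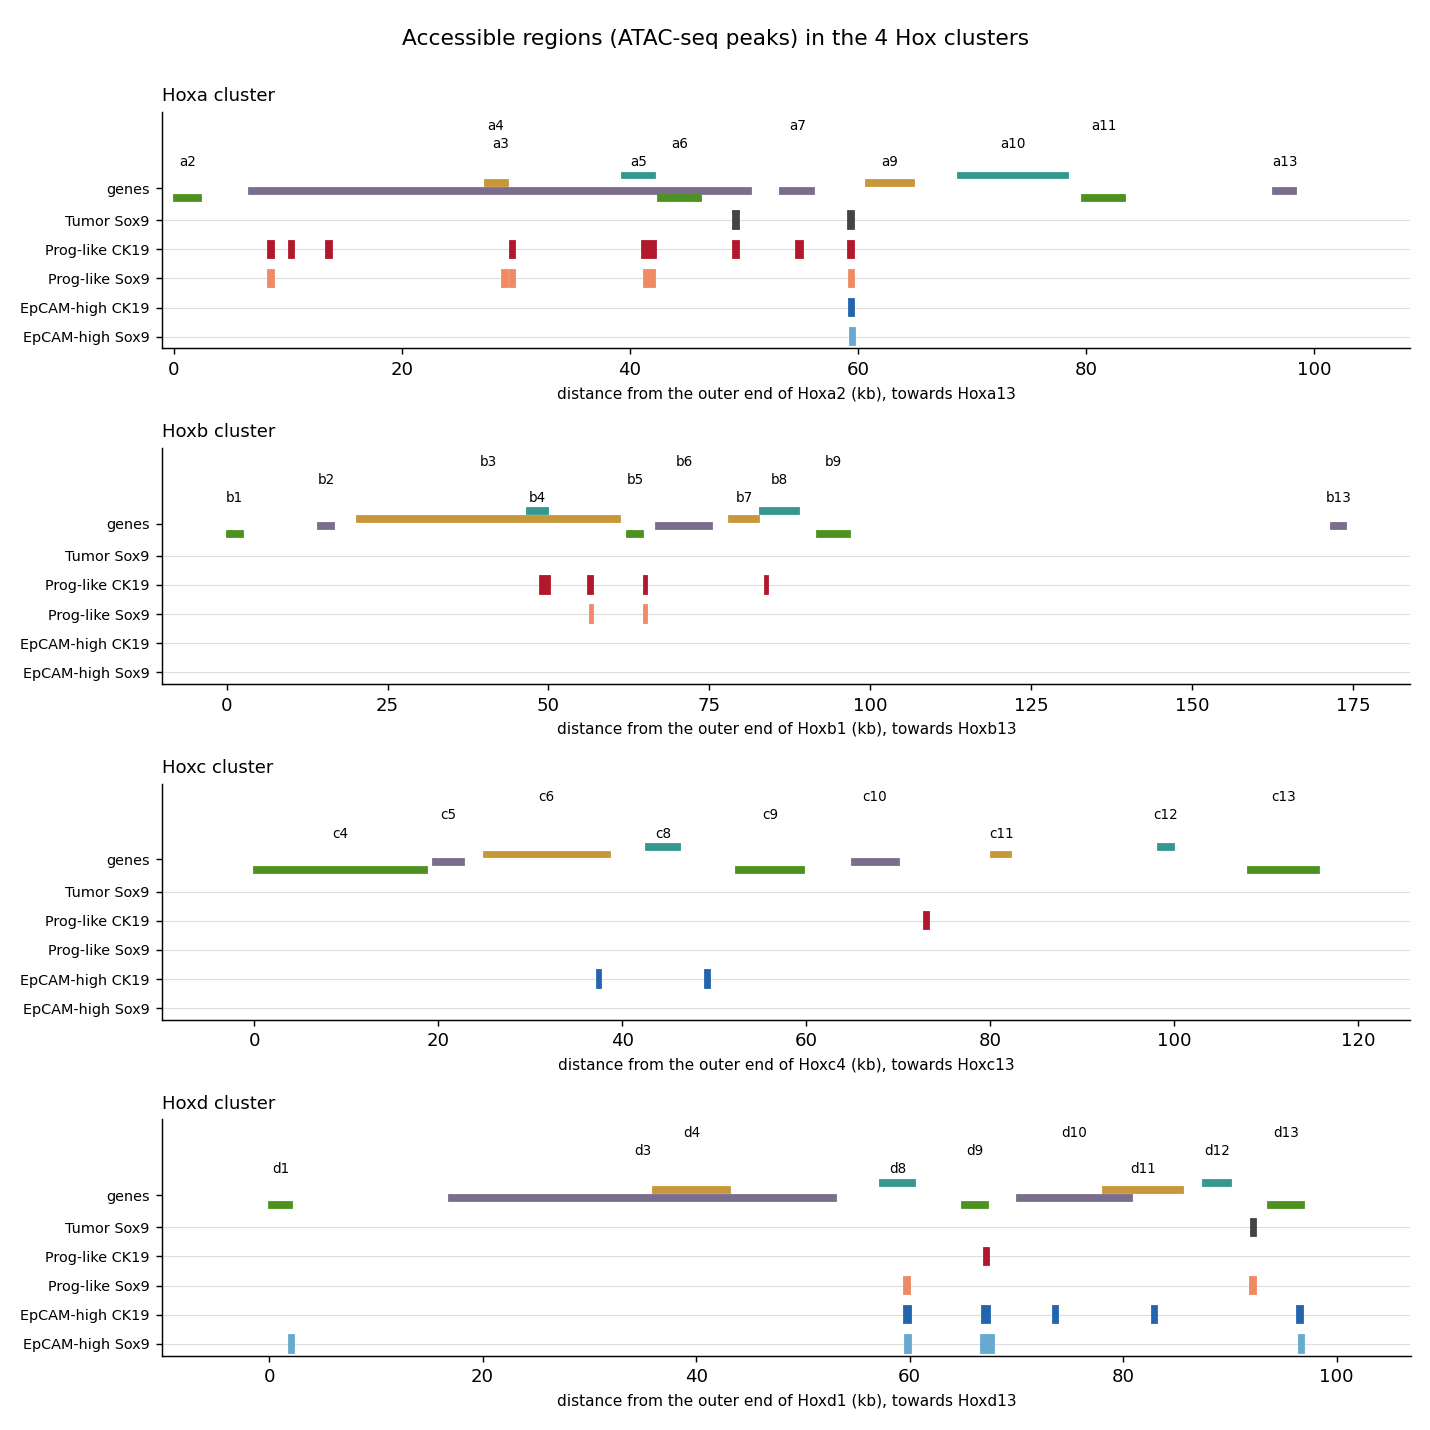
Each panel maps 1 cluster, with distance in kb from the outer end of the first gene drawn (Hoxa2, Hoxb1, Hoxc4 or Hoxd1), genes as bars at the top and the peaks of the 5 lists below (peaks under 0.5 kb are drawn 0.5 kb wide). Prog-like peaks stand between Hoxa3 and the Hoxa7 to Hoxa9 interval and between Hoxb3 and Hoxb8, EpCAM-high peaks stand mostly between Hoxd8 and Hoxd13, and 1 interval, between Hoxa7 and Hoxa9, holds a peak of all 5 lists.

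In HoxA, the Prog-like lists had peaks at Hoxa4, Hoxa5 and Hoxa6, central genes that pattern the neck and upper trunk. The fold enrichments and −log10 q values given from here on are the authors' own for each peak and are read only within a list. Hoxa4 had a peak with a fold of 7.39 and a −log10 q of 23.6 in Prog-like CK19, and 2 peaks in the Prog-like Sox9 list with folds of 7.60 and 4.09 and −log10 q of 15.3 and 4.47. A broad peak over the start of Hoxa5, a gene needed for lung and trachea formation, spanned 1201 bp in Prog-like CK19. It had a fold of 8.07 and a −log10 q of 27.5 there. In the Prog-like Sox9 list it spanned 966 bp with a fold of 7.60 and a −log10 q of 15.3. The other 3 lists had no peak at Hoxa4, Hoxa5 or Hoxa6. Hoxa6 was called through this Hoxa5 peak, which ends 154 bp before the lower-coordinate end of Hoxa6, while the start of Hoxa6 lay more than 1 kb from every peak of the 5 lists. Hoxa5 and Hoxa6 kept their call at equal length in Prog-like CK19 and lost it in the Prog-like Sox9 list, and Hoxa4 lost it in both. The Hoxa5 promoter is printed because the peak of the Prog-like lists covers its start. It is the minus strand at chr6:52204538-52204837 (RefSeq, GRCm38.p6), from 250 bases before the start to 50 after it, with the 167 bases under the Prog-like CK19 peak in capitals.
Hoxa5: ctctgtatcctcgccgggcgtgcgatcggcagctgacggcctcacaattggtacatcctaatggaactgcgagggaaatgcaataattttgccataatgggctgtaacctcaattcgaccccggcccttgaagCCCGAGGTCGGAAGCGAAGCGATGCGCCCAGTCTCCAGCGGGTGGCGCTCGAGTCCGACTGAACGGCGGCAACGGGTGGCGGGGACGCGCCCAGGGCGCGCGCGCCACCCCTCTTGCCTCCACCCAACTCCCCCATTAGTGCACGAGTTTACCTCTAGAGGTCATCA
This promoter had 29 CpG and the highest observed to expected CpG of the Hox promoters in the table, 1.02.

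Hoxa7, a gene of thoracic patterning and of blood progenitors, was open in Prog-like CK19 alone, with a fold of 3.36, a −log10 q of 4.58 and a distance of 938 bp from its end of higher coordinate, close to the limit of 1 kb. Inside the long annotation of Hoxa3, a gene needed for thymus and parathyroid, Prog-like CK19 had further peaks with −log10 q of 12.3, 8.84, 3.99 and 19.1, and Prog-like Sox9 had 1 at the same place as the first of these with a −log10 q of 10.4. The last of them, at chr6:52211471-52211965, also held a Tumor Sox9 peak with a fold of 4.12 and a −log10 q of 3.50. That Prog-like CK19 peak lay 1102 bp from the Hoxa3 end, just outside the limit, so Hoxa3 was not called. Hoxa2, which shapes the second pharyngeal arch, was called in none of the 5 lists. Nor were the posterior genes Hoxa9, which acts in blood progenitors, Hoxa10 and Hoxa11, which act in the uterus and limb, and Hoxa13, which acts in digits and the hindgut.

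A lone region in the 4 clusters held a peak of all 5 lists, and it lay at chr6:52221538-52221889 between Hoxa7 and Hoxa9, 2965 bp from Hoxa7 and 1208 bp from Hoxa9. This interval is known to bind the insulator protein CTCF in mouse embryonic cells, where it separates active from repressed HoxA chromatin. The peak had a −log10 q of 4.30 in Tumor Sox9, 20.9 in Prog-like CK19, 6.04 in the Prog-like Sox9 list, 11.7 in EpCAM-high CK19 and 4.92 in the EpCAM-high Sox9 list. Its fold was 4.50 in Tumor Sox9, 6.89 for Prog-like CK19, 4.68 for Prog-like Sox9, 6.10 for EpCAM-high CK19 and 4.82 for EpCAM-high Sox9. The 5 summits lay within 96 bp of each other. From this region to the far end of Hoxa2, over 59.1 kb, there was 1 peak in Tumor Sox9, 7 in Prog-like CK19, 4 in the Prog-like Sox9 list and 0 in both EpCAM-high lists. From it to the far end of Hoxa13, over 38.99 kb, there was no peak in any list. This division at the shared region was chosen after the peaks were seen and is a description.

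HoxB held peaks of the Prog-like lists and of no other list. Hoxb4, a regulator of blood stem cells, had the longest Hox peak over its start, 1545 bp at chr11:96318025-96319569. This peak had a fold of 5.59 and a −log10 q of 15.6 in Prog-like CK19. Hoxb5, a marker of blood stem cells in mice, had a fold of 4.03 and a −log10 q of 7.15 in Prog-like CK19, and a fold of 3.22 and a −log10 q of 2.36 in the Prog-like Sox9 list. Hoxb7 and Hoxb8 shared a peak of 181 bp in Prog-like CK19 with a fold of 2.69 and a −log10 q of 2.35, at 999 bp from Hoxb7 and 720 bp from Hoxb8, so Hoxb7 was the call nearest to the limit. A region inside Hoxb3, at chr11:96311392-96312039, had a −log10 q of 16.0 in Prog-like CK19 and 13.3 in the Prog-like Sox9 list. All HoxB peaks were lost at equal length, at which the lowest −log10 q kept was 25.5 in Prog-like CK19 and 19.5 in the Prog-like Sox9 list. The hindbrain genes Hoxb1, Hoxb2 and Hoxb3, the trunk genes Hoxb6 and Hoxb9, and Hoxb13, a gene of the tail and prostate, were open in none of the 5 lists. The Hoxb4 promoter is printed because the Prog-like CK19 peak covers 292 of its 300 bases (capitals). It is the plus strand at chr11:96318017-96318316 (RefSeq, GRCm38.p6).
Hoxb4: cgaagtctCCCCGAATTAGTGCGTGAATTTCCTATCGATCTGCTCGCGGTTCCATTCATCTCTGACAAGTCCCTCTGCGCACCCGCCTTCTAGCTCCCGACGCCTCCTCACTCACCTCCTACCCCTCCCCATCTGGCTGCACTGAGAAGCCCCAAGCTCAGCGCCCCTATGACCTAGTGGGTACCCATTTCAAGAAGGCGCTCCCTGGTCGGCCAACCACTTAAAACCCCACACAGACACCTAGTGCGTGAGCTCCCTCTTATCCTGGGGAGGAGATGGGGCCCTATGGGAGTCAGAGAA

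The clusters also hold 6 microRNA genes, and the Hoxb4 peak of Prog-like CK19 lay 751 bp from Mir10a, which made it the only microRNA gene of the 6 with a peak within 1 kb in any list. Mir10a lost this call at equal length. Its relative in HoxD, Mir10b, lies inside the annotation of Hoxd4 and had its nearest peak 52861 bp away in Tumor Sox9, 27886 bp in Prog-like CK19, 20433 bp in the Prog-like Sox9 list, 20371 bp in EpCAM-high CK19 and 20479 bp in the EpCAM-high Sox9 list. The mature 5p forms of the pair are printed because they carry the same seed (bases 2 to 8, in capitals) and so would recognise the same target sites. They differ by 1 substitution, U12A, counted from the 5′ end with the miR-10a base first (RefSeq, GRCm38.p6).
mmu-miR-10a-5p: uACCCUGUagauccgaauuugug
mmu-miR-10b-5p: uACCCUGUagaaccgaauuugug
Mir196b between Hoxa9 and Hoxa10, Mir196a-1 between Hoxb9 and Hoxb13, Mir196a-2 in HoxC and Mir615 inside Hoxc5 had no peak within 1 kb in the 5 lists.

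The Prog-like lists, which alone had open HoxA and HoxB genes, also had more open macrophage genes than the other 3. Of 10 macrophage marker genes, 2 were open in Tumor Sox9, 10 in Prog-like CK19, 10 in the Prog-like Sox9 list, 2 in EpCAM-high CK19 and 3 in the EpCAM-high Sox9 list. The Kupffer cell and macrophage genes Adgre1, Clec4f, Marco, Vsig4 and Cd5l had a gene-end peak in both Prog-like lists and in none of the other 3. Of 5 general leukocyte genes, 0 were open in Tumor Sox9, 5 in Prog-like CK19, 4 in the Prog-like Sox9 list, 2 in EpCAM-high CK19 and 1 in the EpCAM-high Sox9 list. Of 6 endothelial genes, none was open in Tumor Sox9 or EpCAM-high Sox9, 4 in Prog-like CK19, 3 for Prog-like Sox9 and 1 for EpCAM-high CK19. Of 8 stellate cell and fibroblast genes, 2 were open in Tumor Sox9, 4 in the EpCAM-high Sox9 list and 3 in each of the others. Of 8 biliary genes, 4 were open in Tumor Sox9, 4 in Prog-like CK19, 2 in the Prog-like Sox9 list and 8 in each EpCAM-high list. Krt19, the CK19 gene, was open in both EpCAM-high lists and in none of the other 3, the list named Prog-like CK19 included. Of 8 hepatocyte genes, 6 were open in Tumor Sox9, 0 in both Prog-like lists, 4 in EpCAM-high CK19 and 5 in the EpCAM-high Sox9 list. At equal length the macrophage count was 2 in Tumor Sox9, 10 in Prog-like CK19, 9 for Prog-like Sox9, 2 for EpCAM-high CK19 and 3 for EpCAM-high Sox9. The leukocyte count was then 0 in Tumor Sox9, 2 in each Prog-like list, 1 in EpCAM-high CK19 and 0 in the EpCAM-high Sox9 list, and the endothelial count was 2 in each Prog-like list and 0 in the others. The stellate cell and fibroblast count was 2 in Tumor Sox9, 0 in Prog-like CK19, 1 for Prog-like Sox9, 3 for EpCAM-high CK19 and 2 for EpCAM-high Sox9. The biliary count was 4 in Tumor Sox9, 0 in both Prog-like lists, 7 in EpCAM-high CK19 and 8 in the EpCAM-high Sox9 list, and the hepatocyte count was 6 in Tumor Sox9, 0 in both Prog-like lists, 3 in EpCAM-high CK19 and 4 in the EpCAM-high Sox9 list. All these counts stand beside the shares of all genes given for each list, 51.1% to 57.8% as deposited and 45.9% to 53.2% at equal length. The part of these cell types in the Hox result was not tested, and fewer cells of a type and less open chromatin per cell cannot be told apart in bulk ATAC-seq.

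HoxC held few peaks. Hoxc6, a thoracic gene, was its only open gene, in EpCAM-high CK19 alone, with a fold of 3.41, a −log10 q of 3.18 and a distance of 901 bp from a gene end. The same list had a stronger peak between Hoxc9 and Hoxc8, at chr15:102987526-102987830, with a fold of 5.85 and a −log10 q of 10.9, and this peak was kept at equal length. Prog-like CK19 had 1 peak, between Hoxc11 and Hoxc10, with a −log10 q of 3.42. Tumor Sox9, Prog-like Sox9 and EpCAM-high Sox9 had no peak in the 136 kb of HoxC. Hoxc4, Hoxc5, Hoxc8, Hoxc9, Hoxc10, Hoxc11, Hoxc12 and Hoxc13 were open in none of the 5 lists, among them Hoxc8 and Hoxc10, which specify motor neurons, and Hoxc13, which is needed for hair.

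HoxD carried most of the Hox peaks of the EpCAM-high lists, in the stretch from Hoxd8 to Hoxd13. Hoxd13, a gene of digits and of the hind end of the gut and urogenital tract, had a peak starting 61 bp past its transcription start with a fold of 4.88 and a −log10 q of 7.52 in EpCAM-high CK19, and 55 bp past it with a fold of 6.03 and a −log10 q of 7.72 in the EpCAM-high Sox9 list. The other 3 lists had none there. Hoxd13 was open in EpCAM-high CK19 and not in Prog-like CK19 at both list lengths, and EpCAM-high Sox9 lost it at equal length, where its lowest −log10 q kept was 7.88. Hoxd9, a limb gene, had a peak in Prog-like CK19 (fold 3.53, −log10 q 5.19) and in EpCAM-high CK19 (fold 4.88, −log10 q 7.52), and 2 peaks in the EpCAM-high Sox9 list with folds of 3.47 and 3.94 and −log10 q of 2.26 and 3.14. Hoxd8, a trunk gene, had folds of 3.80 in the Prog-like Sox9 list, 3.90 in EpCAM-high CK19 and 4.82 in the EpCAM-high Sox9 list, and its −log10 q was 3.73 for Prog-like Sox9, 4.52 for EpCAM-high CK19 and 4.92 for EpCAM-high Sox9. Hoxd8 and Hoxd9 were open in 3 lists each, the most of any Hox gene. From Hoxd13 to Hoxd8, over 39.7 kb, there was 1 peak in Tumor Sox9, 1 in Prog-like CK19, 2 in the Prog-like Sox9 list, 5 in EpCAM-high CK19 and 4 in the EpCAM-high Sox9 list. From there to Hoxd1, over 57.2 kb, a peak at Hoxd1 in the EpCAM-high Sox9 list was the only one in the 5 lists. It had a fold of 4.42 and a −log10 q of 4.06 and also overlapped Haglr, a non-coding RNA gene. Hoxd3, Hoxd4, Hoxd10, Hoxd11 and Hoxd12 were open in none of the 5 lists by the gene-end rule.

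For Hoxd10 and Hoxd11, limb and kidney patterning genes, the rule missed peaks at transcription starts. The RefSeq table places a start of each inside the annotated gene, and EpCAM-high CK19 had a peak over part of both of these promoters, with −log10 q of 3.18 for Hoxd10 and 2.56 for Hoxd11. The other 4 lists had none there. The 4 HoxD promoters that touch an EpCAM-high peak are printed to show the stretch of each that was accessible. All are on the plus strand of GRCm38.p6 in RefSeq and run from 250 bases before the start to 50 after it. Capitals mark the bases under the peak of EpCAM-high CK19 for Hoxd11 (chr2:74682073-74682372, 267 bases), Hoxd10 (chr2:74691641-74691940, 91 bases) and Hoxd9 (chr2:74697513-74697812, 201 bases), and of EpCAM-high Sox9 for Hoxd1 (chr2:74762730-74763029, 177 bases).
Hoxd11: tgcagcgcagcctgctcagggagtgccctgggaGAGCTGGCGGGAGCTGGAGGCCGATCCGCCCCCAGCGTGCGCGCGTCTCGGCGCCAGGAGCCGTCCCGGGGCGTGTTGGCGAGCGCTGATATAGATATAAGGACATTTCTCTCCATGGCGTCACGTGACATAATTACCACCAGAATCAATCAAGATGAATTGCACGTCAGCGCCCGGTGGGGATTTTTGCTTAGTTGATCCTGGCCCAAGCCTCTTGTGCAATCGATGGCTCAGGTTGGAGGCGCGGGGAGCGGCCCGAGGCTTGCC
Hoxd10: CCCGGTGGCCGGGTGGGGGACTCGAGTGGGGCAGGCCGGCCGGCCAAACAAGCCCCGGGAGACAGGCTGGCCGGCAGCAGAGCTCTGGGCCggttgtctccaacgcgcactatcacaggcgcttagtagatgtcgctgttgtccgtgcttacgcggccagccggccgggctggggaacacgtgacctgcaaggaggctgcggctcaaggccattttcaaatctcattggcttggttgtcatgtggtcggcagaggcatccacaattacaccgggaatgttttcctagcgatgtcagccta
Hoxd9: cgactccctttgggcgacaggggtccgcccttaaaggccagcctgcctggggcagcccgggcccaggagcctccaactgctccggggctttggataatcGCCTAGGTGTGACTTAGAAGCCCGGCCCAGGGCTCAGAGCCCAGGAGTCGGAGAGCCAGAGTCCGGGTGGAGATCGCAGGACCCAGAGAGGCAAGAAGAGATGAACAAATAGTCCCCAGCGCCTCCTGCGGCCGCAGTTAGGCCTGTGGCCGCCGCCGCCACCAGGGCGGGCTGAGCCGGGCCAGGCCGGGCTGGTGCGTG
Hoxd1: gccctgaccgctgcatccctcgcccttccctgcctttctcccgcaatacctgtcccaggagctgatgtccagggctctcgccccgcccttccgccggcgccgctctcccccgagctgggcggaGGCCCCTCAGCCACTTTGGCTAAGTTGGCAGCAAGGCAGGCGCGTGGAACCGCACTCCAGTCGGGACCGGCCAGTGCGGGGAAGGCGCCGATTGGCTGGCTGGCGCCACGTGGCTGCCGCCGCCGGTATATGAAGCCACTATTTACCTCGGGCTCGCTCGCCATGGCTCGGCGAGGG
The Hoxd9 promoter was also touched by a peak of Prog-like CK19. Among the 24 promoters that the table gives for 22 of the 39 Hox genes, a peak overlapped 0 in Tumor Sox9, 3 in Prog-like CK19, 1 in the Prog-like Sox9 list, 3 in EpCAM-high CK19 and 2 in the EpCAM-high Sox9 list. Most of the 24 are promoters of HoxA and HoxD genes, and the share of all promoters overlapped by a peak was not computed.

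Tumor Sox9 was the list with no open Hox gene end. Its 3 Hox cluster peaks were those inside Hoxa3, between Hoxa7 and Hoxa9, and between Hoxd13 and Hoxd12 at chr2:74672877-74673213, which Prog-like Sox9 also held. The last had a fold of 4.50 and a −log10 q of 4.30 in Tumor Sox9, and a fold of 4.39 and a −log10 q of 5.24 in the Prog-like Sox9 list. Each of the 3 therefore overlapped a peak of at least 1 Prog-like list, and 1 of them overlapped EpCAM-high peaks. None of the 3 reached a −log10 q of 5. With a window of 2.5 kb around gene ends in place of 1 kb, 4 Hox genes were open in Tumor Sox9, namely Hoxa3, Hoxa9, Hoxd12 and Hoxd13. The share of all genes at that window was not computed.

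Read from anterior to posterior, the open genes of the Prog-like lists as deposited were mostly central, and those of the EpCAM-high lists together lay in all 3 zones. The open anterior gene (paralogues 1 to 3) of the EpCAM-high lists was Hoxd1, in EpCAM-high Sox9. Among 15 central genes (paralogues 4 to 8), the counts were 0 in Tumor Sox9, 8 in Prog-like CK19 (53.3%, exact 95% interval 26.6% to 78.7%), 5 in the Prog-like Sox9 list (33.3%, 11.8% to 61.6%), 2 in EpCAM-high CK19 (13.3%, 1.66% to 40.5%) and 1 in the EpCAM-high Sox9 list (6.67%, 0.169% to 31.9%). Among 16 posterior genes (paralogues 9 to 13), they were 0 in Tumor Sox9, 1 in Prog-like CK19, 0 in the Prog-like Sox9 list and 2 in each EpCAM-high list. These intervals take in counting error over genes that can share a peak, so their overlap or separation does not compare the lists. Tumor Sox9, with an upper bound of 21.8% among central genes, is also the shortest list. The share of all genes, 51.1% to 57.8% by list, was close to the central share in Prog-like CK19 and above the central share of the other 4 lists. At equal length 2 central genes were open in Prog-like CK19 (13.3%, beside 48.0% of all genes in that list) and 0 in each of the other 4 lists. The central count therefore fell in both Prog-like lists, and the 2 genes left in Prog-like CK19, Hoxa5 and Hoxa6, share a peak. Posterior genes at equal length numbered 2 in EpCAM-high CK19 and 0 in the others. The central HoxA genes were open in 4 of 4 cases in Prog-like CK19 and 3 of 4 in the Prog-like Sox9 list, and the central HoxB genes in 4 of 5 in Prog-like CK19 and 1 of 5 for Prog-like Sox9. In HoxA and HoxB no gene above paralogue 8 was open in any list by the 1 kb rule. With a window of 2.5 kb, Hoxa9 was open in all 5 lists. The posterior genes open by the 1 kb rule, Hoxd9 and Hoxd13, were both of HoxD. Neighbouring genes can share a peak, as Hoxa5 with Hoxa6 and Hoxb7 with Hoxb8 did, so the 10 open genes of Prog-like CK19 rested on 8 peaks.

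**Figure D3:**
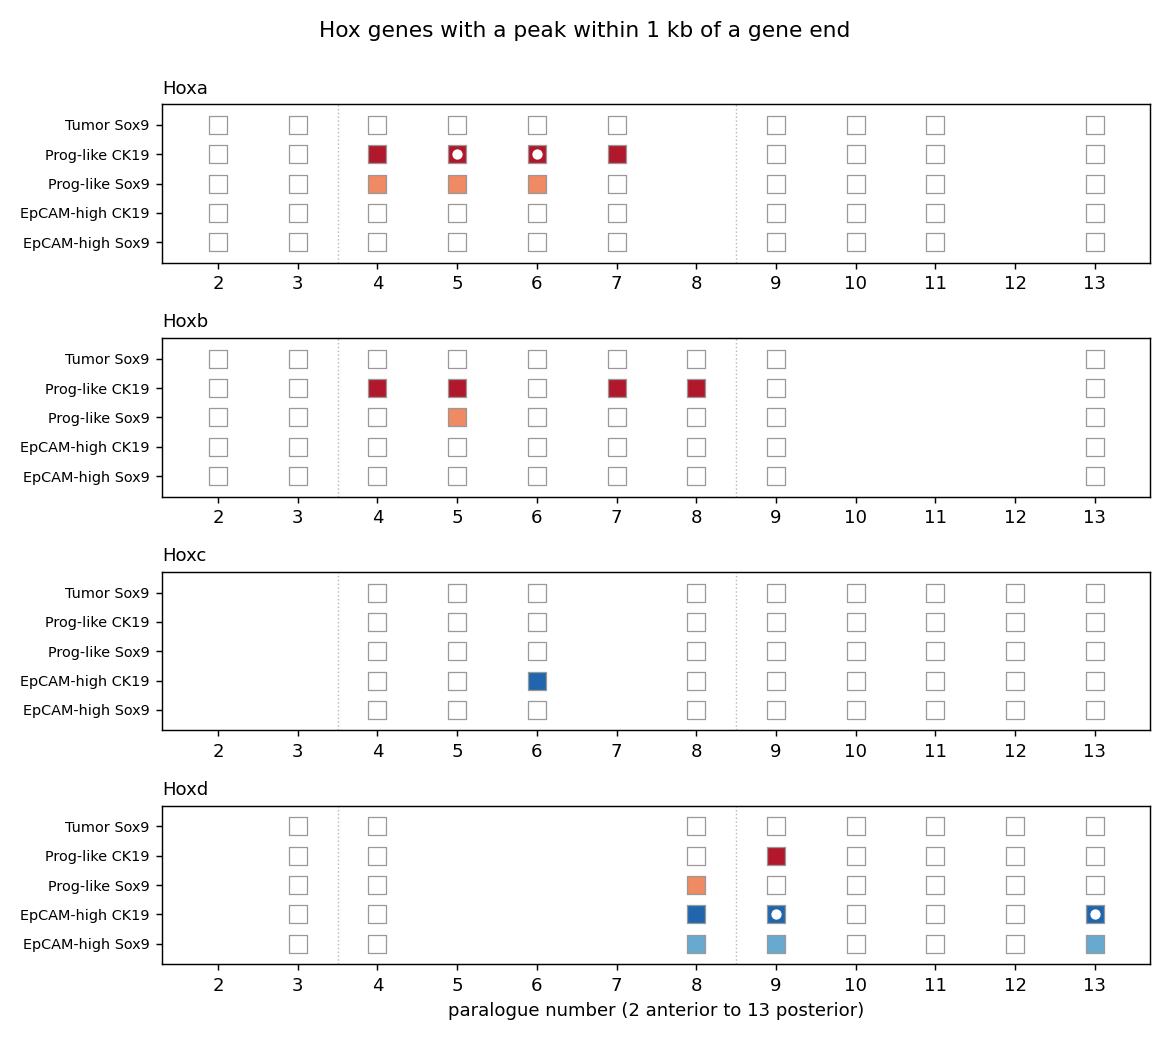
Each square is a Hox gene in a list, by paralogue number (horizontal) and cluster (panels); filled squares have a peak within 1 kb of a gene end, white dots mark those kept at equal length, and dotted lines part anterior, central and posterior genes. Among the genes drawn, paralogues 2 to 13, filled squares in HoxA and HoxB all belong to the Prog-like lists and lie at paralogues 4 to 8, while those of the EpCAM-high lists lie in HoxD and at Hoxc6, and HoxD also holds 1 square of each Prog-like list.

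The comparison of Prog-like with EpCAM-high lists asks how the chromatin of cells named Prog-like differs from that of EpCAM-high cells. Between the CK19 lists, 9 Hox genes were open in Prog-like CK19 alone (among them Hoxa4 to Hoxa7, Hoxb4, Hoxb5, Hoxb7 and Hoxb8), 3 in EpCAM-high CK19 alone (Hoxc6, Hoxd8 and Hoxd13) and 1 in both (Hoxd9). Over all genes, 6.5% were open in Prog-like CK19 alone and 6.95% in EpCAM-high CK19 alone. Between the Sox9 lists, 5 were open in the Prog-like Sox9 list alone (among them Hoxa4, Hoxa5, Hoxa6 and Hoxb5), 3 in the EpCAM-high Sox9 list alone (Hoxd1, Hoxd9 and Hoxd13) and 1 in both (Hoxd8), where 5.68% of all genes were open in Prog-like Sox9 alone and 8.98% in EpCAM-high Sox9 alone. At equal length Hoxa5 and Hoxa6 kept their call in Prog-like CK19, Hoxd9 and Hoxd13 kept theirs in EpCAM-high CK19, and no Hox gene was called in the EpCAM-high Sox9 list. Taking both lists of each kind, 9 Hox genes were open in a Prog-like list and in no EpCAM-high list, all in HoxA and HoxB, 3 the other way, in HoxC and HoxD, and 2 in both kinds. By the same rule 5.63% of all genes were open in a Prog-like list and in no EpCAM-high list, 8.24% the other way and 52.5% in both kinds. The promoter table gives transcription starts for 22 Hox genes, mostly of HoxA and HoxD. With a peak required within 1 kb of a start, the larger Prog-like count did not hold. The count was then 4 in Prog-like CK19 against 5 in EpCAM-high CK19, and 2 in the Prog-like Sox9 list against 4 in the EpCAM-high Sox9 list. Of these, 3 were open in Prog-like CK19 alone (Hoxa5, Hoxa7 and Hoxb4) and 4 in EpCAM-high CK19 alone (Hoxd8, Hoxd10, Hoxd11 and Hoxd13), beside 5.11% and 6.57% of 17491 genes with a promoter entry. Hoxa5 was open at its start in Prog-like Sox9 and not EpCAM-high Sox9, and 3 genes the other way (Hoxd1, Hoxd9 and Hoxd13), beside 4.26% and 8.57%. The share of those 17491 genes open at a start was 52.8% in Tumor Sox9, 58.0% in Prog-like CK19, 55.3% for Prog-like Sox9, 59.4% for EpCAM-high CK19 and 59.6% for EpCAM-high Sox9. HoxA and HoxB genes remained on the Prog-like side and HoxD genes on the EpCAM-high side of each of these pairs. Over all genes at equal length, 4.94% were open in Prog-like CK19 and not EpCAM-high CK19 and 10.1% the other way, and 4.95% in Prog-like Sox9 and not EpCAM-high Sox9 and 10.2% the other way. The CK19 and the Sox9 comparison use different lists, and whether their libraries share animals is not given in the sources used here.

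Against EpCAM-high Sox9, Tumor Sox9 had 0 Hox genes open alone and EpCAM-high Sox9 had 4, beside 2.57% and 9.17% of all genes. Against Prog-like Sox9, Tumor Sox9 again had 0 and Prog-like Sox9 had 6, beside 5.4% and 8.69% of all genes. The 2 comparisons share the Tumor Sox9 list. At equal length the shares of all genes were 5.79% for Tumor Sox9 and 5.77% for EpCAM-high Sox9 in the first pair, and 10.1% for Tumor Sox9 and 4.85% for Prog-like Sox9 in the second. Between the lists of a kind, Prog-like CK19 had 5 Hox genes open that Prog-like Sox9 lacked and 1 the other way, with 5 in both, beside 3.68% and 0.704% of all genes. EpCAM-high CK19 and EpCAM-high Sox9 had 1 each alone (Hoxc6 and Hoxd1) and 3 in both, beside 2.99% and 2.87% of all genes. At equal length Prog-like CK19 had 2 alone (Hoxa5 and Hoxa6) and Prog-like Sox9 0, beside 2.9% and 0.722% of all genes, and EpCAM-high CK19 had 2 alone (Hoxd9 and Hoxd13) and EpCAM-high Sox9 0, beside 4.08% and 1.98%.

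The share of Hox cluster regions held by both lists of a pair lay below the genome share in every pair as deposited. Only for the 2 Prog-like lists did the genome share lie outside the interval, which takes in counting error alone. Of 22 merged Hox regions of the CK19 lists, 3 held a peak of both Prog-like CK19 and EpCAM-high CK19 (13.6%, exact 95% interval 2.91% to 34.9%), and of 15 of the Sox9 lists, 2 held both (13.3%, 1.66% to 40.5%). Over the genome 19.9% and 19.1% of merged regions were shared in these pairs. Tumor Sox9 shared 1 of 8 regions with EpCAM-high Sox9 (12.5%, genome 33.1%) and 2 of 12 with Prog-like Sox9 (16.7%, genome 17.9%). The 2 Prog-like lists shared 8 of 19 regions (42.1%, 20.3% to 66.5%), below the genome share of 74.5%, and the 2 EpCAM-high lists shared 4 of 10 (40.0%, 12.2% to 73.8%), beside 51.9%.

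Hox peaks stood low in their own lists. By −log10 q the median Hox cluster peak was at percentile 26.6 of Tumor Sox9, 27.5 of Prog-like CK19, 23.7 of Prog-like Sox9, 21.9 of EpCAM-high CK19 and 16.1 of EpCAM-high Sox9. A −log10 q of 5 was reached by 0 of 3 peaks in Tumor Sox9, 12 of 16 in Prog-like CK19, 8 of 11 in the Prog-like Sox9 list, 4 of 9 in EpCAM-high CK19 and 1 of 6 in the EpCAM-high Sox9 list. At equal length 3 Hox cluster peaks were left in Tumor Sox9, 3 in Prog-like CK19, 2 for Prog-like Sox9, 4 for EpCAM-high CK19 and 0 for EpCAM-high Sox9, so the larger number in the Prog-like lists was not kept. At that length 0 Hox genes were open in Tumor Sox9, 3 in Prog-like CK19, 1 in the Prog-like Sox9 list, 2 in EpCAM-high CK19 and 0 in the EpCAM-high Sox9 list, where the share of all genes was 51.1% for Tumor Sox9, 48.0% for Prog-like CK19, 45.9% for Prog-like Sox9, 53.2% for EpCAM-high CK19 and 51.1% for EpCAM-high Sox9.

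The promoters in the table did not stand far from all promoters in base composition. The 24 Hox promoters had a median GC content of 57.7% (39.7% to 81.0%) and a median observed to expected CpG of 0.626 (0.257 to 1.02), beside 56.3% and 0.567 over 21262 promoters. Searched on both strands, the CCAAT box (CCAAT) was in 15 of 24 Hox promoters (62.5%) and in 38.2% of all, the GC box (GGGCGG) in 10 (41.7%) and 46.2%, the TATA box (TATAAA) in 4 (16.7%) and 12.6%, and a Pbx-Hox motif (TGATTNAT) in 2 (8.33%) and 2.75%. No 2 of these motifs overlapped in a Hox promoter. The promoters with the Pbx-Hox motif were those of Hoxa2 and the Hoxd11 promoter whose sequence is given. A match describes the letters of the window and is not evidence of binding.

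Most genes for partners and regulators of Hox proteins were open in lists where most Hox genes were not, beside 51.1% to 57.8% of all genes. Of 9 TALE genes, whose Pbx, Meis and Pknox proteins bind DNA together with Hox proteins, 6 were open in Tumor Sox9, 9 in Prog-like CK19, 8 in the Prog-like Sox9 list, 8 in EpCAM-high CK19 and 7 in the EpCAM-high Sox9 list. Meis3 was open in both Prog-like lists and in no other, and kept this at equal length in Prog-like CK19. Pknox2 was open in every list but Tumor Sox9, and Meis2 in every list, both losing the call in the Prog-like lists at equal length. Of 10 Polycomb genes, 9 were open in each list except Prog-like Sox9 with 8, and Cbx7 was open in none of the 5. The gene missing from Prog-like Sox9 was Cbx2, at equal length as well, where Prog-like CK19 also lacked it. Ezh2, Eed and Suz12, the core of the complex that methylates histone H3 on a lysine, were open in all 5 at both lengths. Of 8 trithorax and activator genes, 7 were open in each list except EpCAM-high Sox9 with 6, and Kmt2a, which maintains Hox expression, and Ctcf were open in all 5. Kdm6a, an eraser of the Polycomb mark, was open in every list but EpCAM-high Sox9 at both lengths.

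The ParaHox genes, sister homeobox genes outside the clusters, and the Evx genes at the HoxA and HoxD ends were mostly without a gene-end peak. Of these 8 genes, 1 was open in Tumor Sox9, 0 in Prog-like CK19, 1 in the Prog-like Sox9 list and 3 in each EpCAM-high list, that is 0% to 37.5% beside 51.1% to 57.8% of all genes. Pdx1, which specifies pancreas and duodenum, was open in both EpCAM-high lists alone, and Cdx2, which specifies intestine, was open in Tumor Sox9 and both EpCAM-high lists, at both lengths. Gsx1, a gene of the embryonic brain, was open in the Prog-like Sox9 list and both EpCAM-high lists, and at equal length in EpCAM-high CK19 alone. Evx1 and Evx2 were open in no list. Of the 16 nearest protein-coding neighbours, 2 on each side of each cluster, 10 were open in Tumor Sox9, 10 in Prog-like CK19, 9 in the Prog-like Sox9 list, 9 in EpCAM-high CK19 and 10 in the EpCAM-high Sox9 list. Skap2, Hibadh, Snx11, Atp5g2, Calcoco1, Cbx5, Lnpk and Mtx2 were open in all 5 at both lengths. Among the HoxA neighbours, Snx10 was open in Tumor Sox9 and both Prog-like lists, at equal length in Tumor Sox9 alone. Among the HoxD neighbours, Gm50595 was open in Tumor Sox9 and EpCAM-high Sox9 at both lengths and in no other list. The share of open neighbours, 56.2% to 62.5%, was near that of all genes. The 100 kb beyond each cluster interval held 0 to 4 peaks a side in each list.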

How the data were processed

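ATAC-seq peak lists of YFP+ mouse liver cells were used as deposited. Per the submitters' processing notes, Bowtie 1.1.2, HOMER, MACS2 and deepTools were used with mm10, in roles that the notes leave out; other versions, pooling of libraries, read shifting and duplicate handling were not given in the sources used here. The deposited narrowPeak columns hold a fold enrichment over background (a linear ratio) and −log10 p and q values, with a lowest −log10 q of 1.30 to 1.32. The deposited display score was not used and summit offsets served only to compare positions. Read depth is unknown.

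Overlaps were counted with Python 3.11.15, pandas 2.3.3, NumPy 2.4.6 and SciPy 1.17.1 (minimum 1 bp), in code tested on simulated data. Each list has no replicate, so no test was made. The annotation gives gene ends without strand; transcription starts came from the RefSeq promoter table. All 39 Hox genes enter the totals, and 1 of them is not reported here by itself. Given in detail are those called in 1 list of a pair at both list lengths, those called in all lists or none, and those with the highest fold per list and cluster; partner genes are named on the first of these rules. Hoxa4, Hoxa7, Hoxb7, Hoxb8 and Hoxd1, and partner genes open in all lists or in none, were added after their values were seen. Members and lists were chosen with earlier results of these data known.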

Additional observations from a re-analysis of the deposited data

How the results depend on the processing

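Shortening every list to the length of the shortest changed most Hox counts, since most Hox peaks rank low. Open Hox genes were then 3 in Prog-like CK19, 1 in the Prog-like Sox9 list, 2 in EpCAM-high CK19 and 0 in the EpCAM-high Sox9 list, cluster peaks were 3, 2, 4 and 0, and covered bases were 2792, 1470, 1909 and 0. Open in the first list alone of a pair were 3 (Prog-like CK19, not EpCAM-high CK19), 1 (Prog-like Sox9, not EpCAM-high Sox9), 1 (Prog-like Sox9, not Tumor Sox9), 2 (Prog-like CK19, not Prog-like Sox9), 0 (Prog-like Sox9, not Prog-like CK19), 2 (EpCAM-high CK19, not EpCAM-high Sox9), and 0 of EpCAM-high Sox9 against each of Tumor Sox9, Prog-like Sox9 and EpCAM-high CK19. Shared regions were then 0% in every pair except 66.7% of 3 regions for the 2 Prog-like lists. With −log10 q of 5 or more, open Hox genes were 7 in Prog-like CK19, 4 in the Prog-like Sox9 list, 2 in EpCAM-high CK19 and 1 in the EpCAM-high Sox9 list. Cluster peaks were 0 in Tumor Sox9, 4 in EpCAM-high CK19 and 1 in the EpCAM-high Sox9 list, covering 0, 1909 and 408 bp. EpCAM-high CK19 then had 1 alone against Prog-like CK19. EpCAM-high Sox9 had 1 alone against Prog-like Sox9, 1 against Tumor Sox9 and 0 against EpCAM-high CK19. Prog-like CK19 had 3 alone against Prog-like Sox9, which had 0. Shared regions were 0% for Prog-like Sox9 with EpCAM-high Sox9 and for Tumor Sox9 with EpCAM-high Sox9 or Prog-like Sox9. No share of all genes was computed for the −log10 q cut or for windows of 2.5 kb and 0.2 kb. Counts under those settings therefore describe the Hox calls only. With a window of 2.5 kb, open genes were 4 in Tumor Sox9, 14 in Prog-like CK19, 12 in the Prog-like Sox9 list, 7 in EpCAM-high CK19 and 6 in the EpCAM-high Sox9 list. Alone were then 9 in the Prog-like Sox9 list against EpCAM-high Sox9, 3 in the Prog-like Sox9 list against Prog-like CK19, 2 in Tumor Sox9 against EpCAM-high Sox9 and 2 in EpCAM-high CK19 against EpCAM-high Sox9. With 0.2 kb, 7 were open in Prog-like CK19, 5 in the Prog-like Sox9 list and 3 in the EpCAM-high Sox9 list. In EpCAM-high CK19 2 were open, 1 of them not in Prog-like CK19 and 0 not in the EpCAM-high Sox9 list. The Prog-like pair had 2 (CK19) and 0 (Sox9) alone. At the transcription starts of the 22 genes in the promoter table, 4 were open in Prog-like CK19, 2 in the Prog-like Sox9 list, 5 in EpCAM-high CK19 and 4 in the EpCAM-high Sox9 list, so the larger Prog-like count turned round; the cause was not tested. Of these, 3 were not open in EpCAM-high CK19 and 3 not in the Prog-like Sox9 list (Prog-like CK19), 1 was not open in the EpCAM-high Sox9 list and 2 not in Tumor Sox9 (Prog-like Sox9), and EpCAM-high CK19 had 2 that EpCAM-high Sox9 lacked. Leaving out the flank and requiring 50% overlap moved none of these totals or shares beyond 1.5 times or their interval. Of 340 further values by cluster, zone or partner list under these settings, 251 stayed within that range and 89 did not. No paired analysis was possible because each list is a single condition with no column per library.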
